A study of Mus musculus with 6 samples.

Results

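The genes described here encode 3 groups of pre-mRNA splicing factors, chosen by symbol alone: every gene of the array whose symbol starts with Srsf (SR proteins), Hnrnp (heterogeneous nuclear ribonucleoproteins), or Sf3a or Sf3b (splicing factor 3 subunits). They numbered 38 of the 18193 genes that had a probe set with a single symbol, namely 10 Srsf, 19 Hnrnp, 3 Sf3a and 6 Sf3b genes, read by 121 probe sets. For each gene the brightest of its probe sets by mean log2 signal was read, and 37 of the 38 lay above the filter on low signal (a mean signal of 115, below which lay the lowest 40% of probe sets). The exception was Srsf12, an SR-related protein, with signals of 41.7, 10.1 and 21.8 in Glut1-TG hearts, against 3.3, 25.6 and 6.2 in WT hearts, all under that signal and therefore not tested. The samples were left ventricles of 3 Glut1-TG mice, in which the alpha-myosin heavy chain promoter drives human Glut1, an insulin-independent glucose transporter, in cardiomyocytes, and of 3 wild-type (WT) mice. All 6 were FVB males 11-12 weeks old on standard chow, with 1 Affymetrix array each, and the sample labels name no stress or treatment. The series text counts the control mice among the transgenic ones, whereas the sample labels call them wild type.

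Splicing removes introns from nascent transcripts. SR proteins carry RNA recognition motifs and a domain rich in arginine and serine, bind exonic enhancers and help the spliceosome to define an exon. The hnRNPs coat nascent RNA and often oppose exon inclusion, while SF3A and SF3B are parts of the U2 small nuclear ribonucleoprotein, which recognises the branch point. In the mouse heart, Srsf1 and Srsf2 are known to be needed in cardiomyocytes. The array reads the amount of a transcript near its end and does not measure how introns are removed.

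None of the 37 tested genes passed limma at an adjusted p under 0.05: 0 were higher and 0 were lower in Glut1-TG hearts, where 0.258% and 0.599% of all 13178 genes tested were called in these directions (0.857% in either). At an unadjusted p under 0.05, 1 gene was higher (2.7%, against 5.47% of all genes) and 7 were lower (18.9%, against 5.81% of all genes), which is 21.6% against 11.3% in either direction. These counts were 2 higher and 4 lower after quantile normalization and 0 and 6 after centring each array on its median. Without the intensity trend of the fit they were 1 and 2. They were 1 higher and 3 lower without Glut1-TG replicate 1, 0 and 5 without replicate 2 and 1 and 6 without replicate 3. Without WT replicates 1, 2 and 3 in turn they were 0 and 6, 1 and 4, and 0 and 2. The shares of all genes at that p were not computed for these alternatives, so 5.47% and 5.81% do not apply to them. After Benjamini-Hochberg adjustment, the methods' t-test called 0 of the 37 (0.00759% of all genes), and unadjusted it gave 6 (16.2%, against 9.77%). At the thresholds of the study, an unadjusted p under 0.05 by that test and a minimum fold, Srsf2 was the 1 gene lower and 0 were higher (2.65% and 3.21% of all genes). The log2 fold changes, Glut1-TG minus WT, had a median of -0.11, against 0.02 over all genes tested, and ran between -0.38 for Hnrnph3 and 0.46 for Hnrnpl. They lay below 0 for 28 of the 37 genes (75.7%, against 47.0% of all genes), for 27 after quantile normalization (49.4% of all genes) and for 34 after centring on array medians (62.3% of all genes). In the probe set used for each gene, the differences were small and fairly well bounded. Of the 37, 33 were under the minimum fold of the study either way (89.2%, against 74.0% of all genes). The 95% confidence intervals of 32 excluded a change of 1.5-fold or more (86.5%, against 44.5%), that of Srsf2 only narrowly. The intervals of the other 5, Hnrnph3, Hnrnpl, Srsf5, Sf3a3 and Sf3b6, passed 1.5-fold in one direction. No interval of the 37 reached 2-fold, as for 75.2% of all genes. The median standard error (SE) of these log2 fold changes was 0.11, against 0.19 over all genes tested. Genes of similar signal were not compared, so this precision cannot be called particular to the 37 genes. These bounds do not cover the further probe sets, some of which changed more. Examples are log2 fold changes of -0.64 in Hnrnpab, -0.53 in Srsf3 and 0.73 in Hnrnpk.

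**Figure D1:**
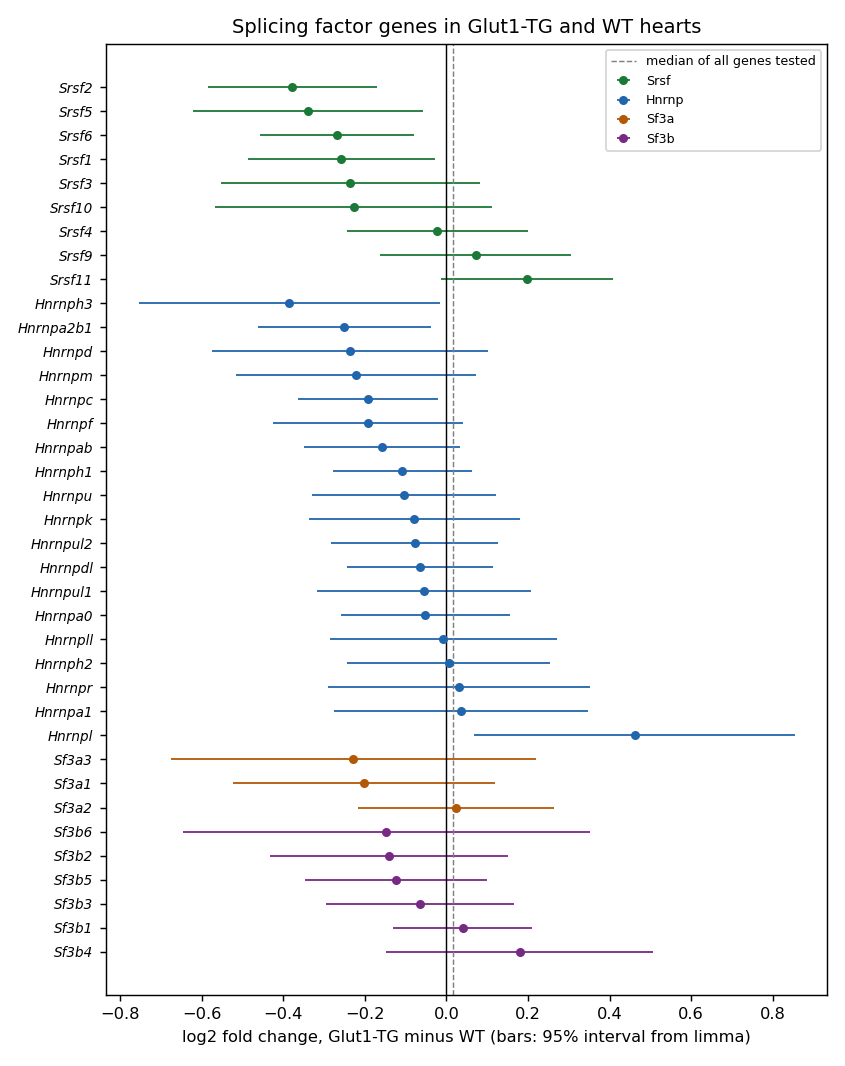
The horizontal axis gives log2 fold changes, Glut1-TG minus WT, of the 37 splicing factor genes, grouped by family, with bars for the 95% confidence interval from limma and a dashed line at the median of all genes tested. Points lie between -0.38 and 0.46, 28 of them below 0, and none passed at an adjusted p under 0.05.

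The trimmed mean signal was 500 in every array as deposited. The median signal was 213 in Glut1-TG replicate 1, 181 to 185 in the other Glut1-TG arrays and 171 to 187 in WT arrays. The ratio of the 3' to the 5' control probe set of beta-actin, a measure of RNA integrity and labelling, was 0.995 to 1.06 in Glut1-TG arrays and 1.31 to 1.4 in WT arrays, without overlap, whereas that of Gapdh was 0.789 to 0.830 in Glut1-TG and 0.817 to 0.827 in WT arrays. Of 14 cardiomyocyte markers all 14 had log2 fold changes below 0 (median -0.18, 0 past limma), and their summed signal was 492827 to 525320 in Glut1-TG arrays and 528601 to 635602 in WT arrays. Markers of endothelial cells, fibroblasts and macrophages had medians of 0.02, 0.09 and 0.08 and 0 past limma, with summed signals that overlapped between the groups. Of 8 lymphocyte markers 4 were above the filter (median 0.48, 0 past limma), with a summed signal of 1134 to 1569 in Glut1-TG and 993 to 1058 in WT arrays. Of 5 atrial cardiomyocyte markers 3 were above the filter. Their log2 fold changes had a median of 1.75 and a maximum of 3.76, which was also the maximum over all genes tested. The light chains Myl4 and Myl7 passed limma as higher in Glut1-TG hearts, and Nppa had a log2 fold change of -0.07. The summed signal of the 3 overlapped, at 5197 to 8615 in Glut1-TG and 5083 to 6004 in WT arrays. The part of these differences in the splicing factor values was not tested, and in whole tissue fewer cells of a type and less RNA per cell cannot be told apart. Of the 3 probe sets of mouse Slc2a1, which encodes Glut1, 1 had signals of 753 to 851 in Glut1-TG and 409 to 533 in WT hearts (adjusted p = 0.11), and the other 2 were lower in every Glut1-TG array than in every WT array. Whether any of them reads the human transgene was not tested.

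Across arrays, the 37 genes were lowest in Glut1-TG replicate 1. Measured as log2 signal minus the WT mean of each gene, their median was -0.20, -0.07 and -0.03 in Glut1-TG replicates 1, 2 and 3, against -0.03, 0.00 and 0.03 in the WT arrays. The same median over all genes tested lay between -0.01 and 0.04 in every array. Glut1-TG replicate 1 held the lowest of the 6 signals for 20 of the 37 genes, and WT replicate 3 the highest for 14. The shares of all genes tested were not computed for these counts, so they cannot be called particular to the 37 genes. Without Glut1-TG replicate 1 the median log2 fold change over the 37 genes was -0.09. At an unadjusted p under 0.05 by limma, 3 were then lower and 1 higher, and the share of all genes was not computed.

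**Figure D2:**
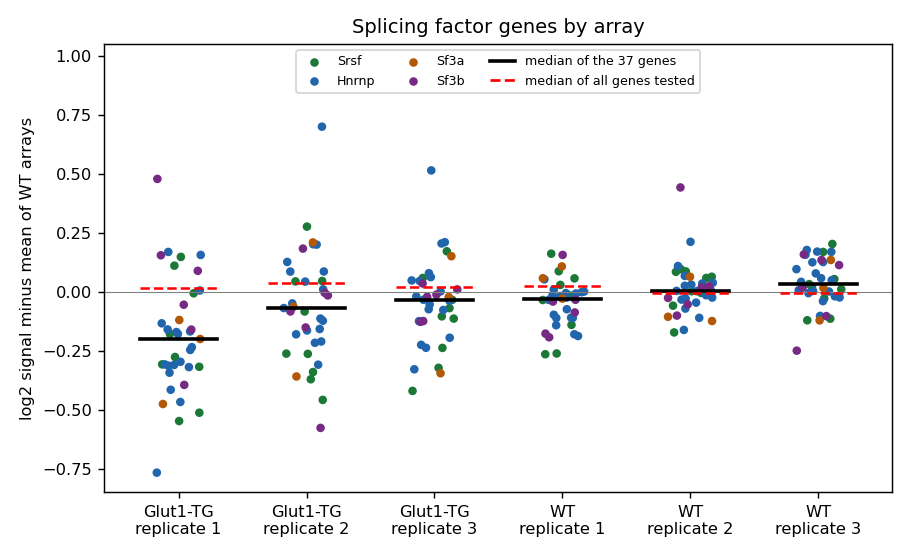
Log2 signal of each of the 37 genes minus its mean over the WT arrays (vertical axis) in each of the 6 arrays; points are genes coloured by family, black lines their medians and red dashed lines the medians of all genes tested. The black line is at -0.20 in Glut1-TG replicate 1 and between -0.07 and 0.03 in the other arrays.

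The gene starts of 33 of the 37 genes were found in the RefSeq promoter table (GRCm38.p6, the first start listed for each gene), and the 100 bases before the start are shown for the genes with the smallest unadjusted p, Srsf2 and Srsf6 among those lower in Glut1-TG hearts and Hnrnpl among those higher. Capitals mark matches on either strand to the cyclic AMP response element TGACGTCA, its core TGACG, the GC box GGGCGG, the CCAAT box, the TATA box TATAAA or the ETS site CCGGAAG, a list chosen after its counts were seen.
Srsf2, chr11:116853095-116853194, minus strand: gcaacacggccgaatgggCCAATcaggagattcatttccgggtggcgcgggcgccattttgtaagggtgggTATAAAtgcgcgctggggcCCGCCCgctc
Srsf6, chr2:162931408-162931507, plus strand: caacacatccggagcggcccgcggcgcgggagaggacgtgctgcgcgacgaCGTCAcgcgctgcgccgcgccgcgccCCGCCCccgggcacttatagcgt
Hnrnpl, chr7:28810790-28810889, plus strand: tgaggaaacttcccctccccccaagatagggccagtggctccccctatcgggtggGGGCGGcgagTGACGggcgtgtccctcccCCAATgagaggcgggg
All 3 windows held a GC box, Srsf2 held a TATA box, and Srsf6 and Hnrnpl held the core element. In the 250 bases before the start, the GC box was present in 24 of 33 genes (72.7%, against 55.8% of the 10582 genes tested that matched and 32.9% of all 27025 promoters). The core element was present in 14 (42.4%, against 25.5% and 17.9%) and the full element, which contains the core, in 0 (against 2.52% and 1.62%). The CCAAT box was present in 16 (48.5%, against 35.5% and 34.5%), the TATA box in 4 (12.1%, against 7.52% and 13.0%) and the ETS site in 11 (33.3%, against 12.4% and 7.05%). By family, the ETS site was present in all 3 Sf3a and 3 of 4 Sf3b genes, in 3 of 9 Srsf and in 2 of 17 Hnrnp genes, while the core element was present in 6 of 9 Srsf, 8 of 17 Hnrnp and none of the Sf3a and Sf3b genes. The GC content of these 250 bases had a median of 61.6% for the 33 genes, 59.2% for the genes tested and 52.0% for all promoters. These matches are descriptions of the sequence, and they do not show that a factor binds there.

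Among the SR proteins, 7 of 9 tested genes had log2 fold changes below 0, with a median of -0.24, and 0 passed limma. Srsf2, the SR protein SC35, which activates exons through their enhancers, had signals of 3515, 4281 and 4110 in Glut1-TG hearts and 5015, 5146 and 5254 in WT hearts. The highest Glut1-TG signal was thus under the lowest WT signal. The log2 fold change of -0.38 (SE 0.09) had a 95% confidence interval of -0.58 to -0.17 and an adjusted p of 0.13 from limma, the smallest among the 37 genes. The further sets of Srsf2 disagreed, at -0.37, -0.30 and 0.56, and the mean of its sets gave -0.12 (adjusted p = 0.67). Srsf6, the SR protein SRp55, had 3691, 3809 and 3873 in Glut1-TG hearts, against 4751, 4774 and 4201 in WT hearts, again without overlap. Its log2 fold change was -0.27 (SE 0.08, adjusted p = 0.27), but its further sets disagreed, at 0.26, 0.11 and -0.40, and the mean of its sets gave -0.07 (adjusted p = 0.82). Srsf5, the SR protein SRp40, had 4526, 6093 and 4825 in Glut1-TG hearts and 7220, 5729 and 6504 in WT hearts. The groups overlapped because Glut1-TG replicate 2 exceeded WT replicate 2, and the log2 fold change was -0.34 (SE 0.13, adjusted p = 0.36). Srsf1, the founding SR protein (SF2/ASF), had 2242, 2208 and 2583 in Glut1-TG hearts and 2535, 2967 and 2900 in WT hearts. Here Glut1-TG replicate 3 passed WT replicate 1, and the log2 fold change was -0.26 (SE 0.10, adjusted p = 0.40).

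Srsf3, the smallest SR protein, and Srsf10, which in its dephosphorylated form represses splicing, had similar sizes with wider error. Srsf3 averaged 1772 ± 239 in Glut1-TG hearts and 2090 ± 321 in WT hearts (SD, n = 3 each), and Srsf10 averaged 935 ± 115 in Glut1-TG and 1098 ± 175 in WT hearts. Their log2 fold changes were -0.24 (SE 0.14) and -0.23 (SE 0.15), and their intervals included 0. With an array left out, Srsf3 had -0.12 (without Glut1-TG replicate 2) to -0.37 (without WT replicate 1), and Srsf10 had -0.13 (without WT replicate 3) to -0.36 (without WT replicate 1). Srsf4, the SR protein SRp75, was at 1556 ± 80.6 in Glut1-TG and 1580 ± 85.3 in WT hearts, a log2 fold change of -0.02 with an interval between -0.24 and 0.20. Srsf9 and Srsf11 lay on the other side. Srsf11, an SR-related protein, had 2299, 2512 and 2337 in Glut1-TG hearts and 2117, 2200 and 1917 in WT hearts, without overlap, and a log2 fold change of 0.20 (SE 0.09, adjusted p = 0.47). Srsf9 had 1123, 1073 and 1083 in Glut1-TG hearts, against 1029, 1037 and 1054 in WT hearts. These groups did not overlap either, although the log2 fold change was only 0.07 (SE 0.10, adjusted p = 0.84).

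**Figure D3:**
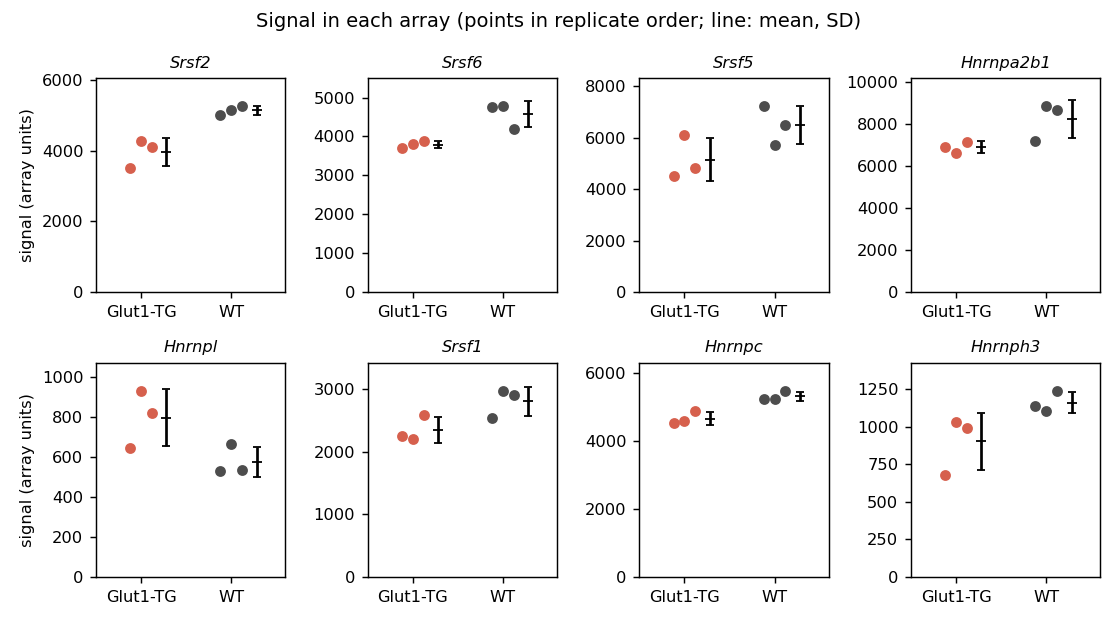
Signal on a linear scale (vertical axis, from 0) of the 8 splicing factor genes with an unadjusted p under 0.05, in the 3 Glut1-TG arrays (left of each panel) and the 3 WT arrays (right), with the mean and SD beside the points. In Srsf2, Srsf6, Hnrnpa2b1, Hnrnpc and Hnrnph3 the groups do not overlap, while in Srsf5, Hnrnpl and Srsf1 they do, and none of the 8 passed after adjustment.

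Of the 19 hnRNP genes, 15 had log2 fold changes below 0, with a median of -0.08, and 0 passed limma in either direction. Hnrnpl, a protein that binds CA-rich repeats and regulates exon inclusion, had 643, 929 and 817 in Glut1-TG hearts and 530, 662 and 533 in WT hearts. It had the largest log2 fold change of the 37 genes, 0.46 (SE 0.18, 95% confidence interval 0.07 to 0.85, adjusted p = 0.37), and the groups overlapped through Glut1-TG replicate 1. Without that array the log2 fold change was 0.61 (SE 0.16, adjusted p = 0.18). Hnrnph3, of the F/H group that binds G-rich runs, had 680, 1033 and 990 in Glut1-TG hearts and 1137, 1102 and 1237 in WT hearts. Its groups did not overlap, but much of the size came from Glut1-TG replicate 1: the log2 fold change was -0.38 (SE 0.17, adjusted p = 0.42) with that array and -0.19 (SE 0.11, adjusted p = 0.57) without it.

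Hnrnpa2b1, an abundant core hnRNP with roles in splicing and RNA transport, had 6928, 6634 and 7180 in Glut1-TG hearts, against 7217, 8864 and 8675 in WT hearts. The highest Glut1-TG signal lay just under the lowest WT signal, and the log2 fold change was -0.25 (SE 0.10, adjusted p = 0.37). Hnrnpc, which binds uridine-rich tracts and keeps cryptic exons out of transcripts, had 4507, 4565 and 4865 in Glut1-TG hearts and 5238, 5214 and 5460 in WT hearts. The groups did not overlap, with a log2 fold change of -0.19 (SE 0.08, adjusted p = 0.40). Hnrnph1 was the fourth hnRNP gene whose groups did not overlap, at 3835 ± 76.1 in Glut1-TG hearts and 4133 ± 92.7 in WT hearts (SD, n = 3 each), a log2 fold change of -0.11 (SE 0.08). Hnrnpd, which binds AU-rich elements and is also known as AUF1, had 956, 1402 and 1052 in Glut1-TG hearts and 1224, 1308 and 1440 in WT hearts. These overlapped, with a log2 fold change of -0.24 (SE 0.15, adjusted p = 0.60), which was -0.12 without Glut1-TG replicate 1 and -0.40 without Glut1-TG replicate 2. Hnrnpm, Hnrnpf and Hnrnpab had log2 fold changes of -0.22, -0.19 and -0.16 with adjusted p of 0.57, 0.53 and 0.53. The remaining 10 hnRNP genes, Hnrnpa0, Hnrnpa1, Hnrnpdl, Hnrnph2, Hnrnpk, Hnrnpll, Hnrnpr, Hnrnpu, Hnrnpul1 and Hnrnpul2, lay between -0.10 and 0.04, and their intervals stayed between -0.34 and 0.35. Among them Hnrnpu, a nuclear matrix protein that the mouse heart is known to require, was at 4567 ± 567 in Glut1-TG hearts and 4885 ± 148 in WT hearts.

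The 9 subunit genes of SF3A and SF3B had 0 past limma and 0 at an unadjusted p under 0.05, and no gene had groups that did not overlap. Sf3a3 had 382.5, 415 and 590 in Glut1-TG hearts and 521, 494 and 584 in WT hearts, a log2 fold change of -0.23 (SE 0.20, adjusted p = 0.72), which was -0.10 without Glut1-TG replicate 1 and -0.42 without Glut1-TG replicate 3. Sf3a1 had 623, 685 and 563 in Glut1-TG hearts and 745, 748 and 658 in WT hearts, a log2 fold change of -0.20 (SE 0.14, adjusted p = 0.64). Both pairs overlapped. Sf3a2 was at 3490 ± 416 in Glut1-TG and 3427 ± 274 in WT hearts (log2 fold change 0.02). In SF3B, the largest size was that of Sf3b4, which contacts the RNA near the branch point. It had 2346, 1912 and 1546 in Glut1-TG hearts, against 1585, 1654 and 1822 in WT hearts, a log2 fold change of 0.18 (SE 0.15, adjusted p = 0.69), and the Glut1-TG arrays lay on both sides of the WT arrays. This value rested on single arrays, at 0.03 without Glut1-TG replicate 1 and 0.33 without Glut1-TG replicate 3. Without Glut1-TG replicate 1, Sf3b6 (-0.30), Sf3b5 (-0.11) and Sf3b3 (-0.07) were larger in size. Sf3b6, the branch point protein p14, had 1451, 874 and 1284 in Glut1-TG and 1140, 1770 and 1096 in WT hearts, the widest spread of the family (log2 fold change -0.15, SE 0.22). Sf3b2 and Sf3b5 had log2 fold changes of -0.14 (SE 0.13) and -0.12 (SE 0.10), and Sf3b3 had -0.07. Sf3b1, the large scaffold subunit and a frequent site of mutation in human myeloid disease, was among the most tightly measured, at 4540 ± 147 in Glut1-TG and 4416 ± 109 in WT hearts (SD, n = 3 each). Its log2 fold change of 0.04 had an interval of -0.13 to 0.21.

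In total 8 of the 37 genes had groups that did not overlap (21.6%, against 17.4% of all genes tested). Of these 6 were lower in Glut1-TG hearts (16.2%, against 8.77%) and 2 were higher (5.41%, against 8.67%). The lower genes were Srsf2, Srsf6, Hnrnpa2b1, Hnrnpc, Hnrnph1 and Hnrnph3, and the higher ones Srsf9 and Srsf11. The share for both directions together was near that of all genes. The count was 15 with Glut1-TG replicate 2 left out, 16 with Glut1-TG replicate 3 left out and 14 with WT replicate 1 left out, where 27.2%, 30.3% and 29.2% of all genes did not overlap. It was 13 with the mean of all probe sets of a gene (16.6% of all genes). After quantile normalization it was 6 (17.2% of all genes), and after centring on array medians it was 6 (16% of all genes).

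Most of these genes were read by more than 1 probe set, and the signs of the sets were often mixed. Above the filter lay 108 probe sets of the 37 genes, and 28 genes had several. In 8 of the 28 all probe sets had log2 fold changes below 0, in 3 all lay above 0 and in 17 the signs were mixed. For Srsf1 all 6 probe sets lay below 0, between -0.61 and -0.18. All 4 sets of Hnrnpa2b1, all 5 of Hnrnpab, all 5 of Hnrnpu and all 4 of Hnrnpf were below 0 as well. Fitted over all 22551 single-symbol probe sets above the filter, 0 of the 108 passed limma (0.448% of all sets). At an unadjusted p under 0.05, 20 were lower (18.5%, against 5.46% of all sets) and 4 higher (3.7%, against 4.83%). Several of the lower sets read the same gene on the same arrays, as in Srsf1 and Srsf2, so they are not separate observations.

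In each array, the log2 ratio of the probe set used to each further set of the same gene cancels the scaling of that array. Of 71 such ratios in the splicing factor genes, 0 differed between Glut1-TG and WT hearts by limma (smallest adjusted p = 0.62, adjusted over 9373 ratios), as did 0% of all ratios, and 3 had an unadjusted p under 0.05 (4.23%, against 6.33% of all ratios). These 3 are given as values. In Srsf2, a further set had 469, 492 and 510 in Glut1-TG hearts and 365, 314 and 323 in WT hearts, higher in every Glut1-TG array, while the set used was lower in every one. The ratio differed by -0.93 on the log2 scale (SE 0.20, adjusted p = 0.62). The other 2 sets of Srsf2 had log2 fold changes of -0.37 and -0.30. In Hnrnpk, a poly(C)-binding hnRNP, a further set had 1713, 2253 and 1478 in Glut1-TG hearts and 1059, 1075 and 1106 in WT hearts, also without overlap. The set used for Hnrnpk and the remaining 2 had log2 fold changes of -0.08, -0.09 and -0.13, and the ratio to that further set differed by -0.80 (SE 0.21, adjusted p = 0.66). In Hnrnpul2, a further set had 873, 740 and 810 in Glut1-TG hearts and 519, 553 and 577 in WT hearts, against a log2 fold change of -0.08 for the set used, and the ratio differed by -0.63 (SE 0.17, adjusted p = 0.72). Further sets of opposite sign to the one used were also found in other genes described above. They were at 0.02 for Hnrnpd, 0.35 for Hnrnph1 and 0.75 (beside another at -1.14) for Sf3a1. For Srsf11 they were at -0.18, -0.12 and -0.46, for Srsf3 at 0.12 and for Srsf10 at 0.05. In SF3B they were at 0.54 for Sf3b2, 0.05 for Sf3b5, and 0.12 and 0.07 for Sf3b6. Among the hnRNP genes near 0 they were at -0.12 for Hnrnpa1, 0.03 for Hnrnpdl, 0.001 for Hnrnpll, and -0.10 and -0.74 for Hnrnpr. Set names ending in _s_at or _x_at can read related transcripts, and of the 37 sets used 4 end in _s_at and 5 in _x_at. When such sets were left out, Srsf2 was represented by the further set given above, and its log2 fold change was 0.56 (SE 0.17, adjusted p = 0.27). The direction given for Srsf2 therefore rests on its _s_at sets.

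**Figure D4:**
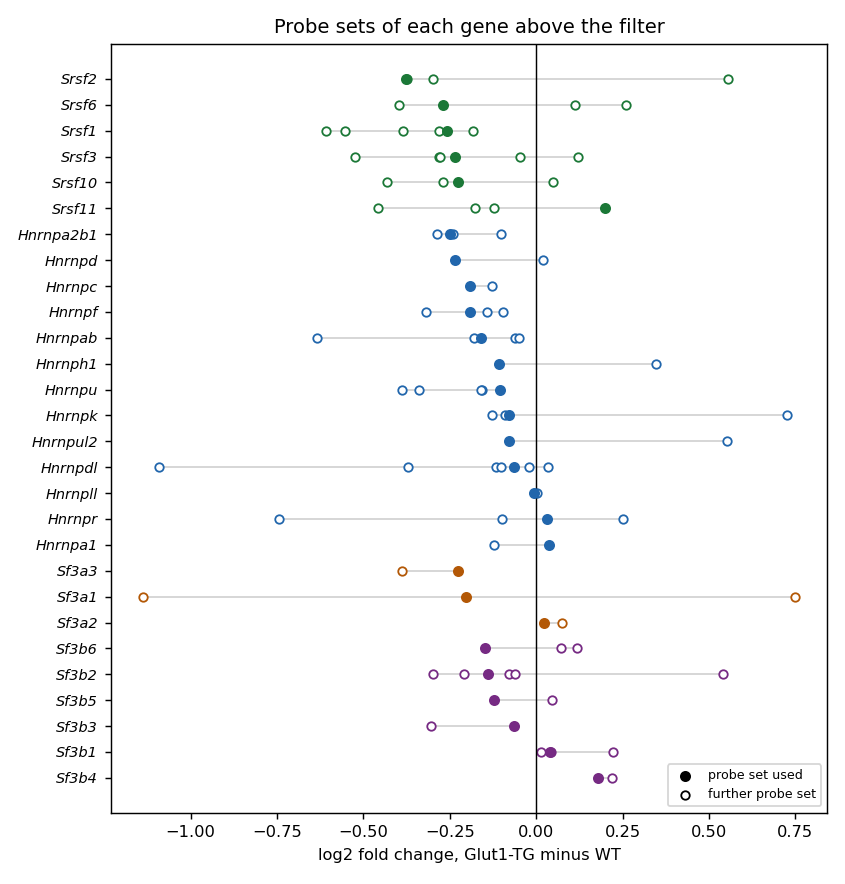
The horizontal axis gives log2 fold changes, Glut1-TG minus WT, of every probe set above the filter for the 28 genes with several, with filled points for the set used and open points for further sets. Signs are mixed in 17 of the 28 genes, with the widest span in Sf3a1, from -1.14 to 0.75. Srsf2, Hnrnpk and Hnrnpul2 hold the ratios of sets with the smallest unadjusted p from limma, and no ratio passed limma.

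Other genes of splicing were read from lists written from general knowledge, and 0 of 86 tested genes passed limma in either direction. The counts by unadjusted p that follow stand against 5.81% lower and 5.47% higher of all genes tested, so that 5.81% is the share to set beside 3 of 11, 5 of 18 or 3 of 20. Of 11 genes of the U1 particle and the U2 auxiliary factors, which recognise the ends of the intron, 3 were lower and 0 higher by unadjusted p at that threshold. Sf1, the branch point binding protein, had 10141, 9567 and 10198 in Glut1-TG hearts and 11910, 11337 and 11719 in WT hearts, without overlap (log2 fold change -0.23, SE 0.07, adjusted p = 0.29). That set ends in _s_at, and Sf1 had -0.03 without such sets and 0.07 as the mean of its sets. Of 18 Sm core and U2, U5 and U4/U6 proteins 5 were lower and 0 higher at that p. Snrpa1, a U2 protein, had 248, 276 and 405 in Glut1-TG hearts and 512, 502 and 643 in WT hearts, without overlap, and a log2 fold change of -0.86 (SE 0.23, adjusted p = 0.18). The mean of the Snrpa1 probe sets gave -0.23 (adjusted p = 0.74). Among 9 kinases and carriers of SR proteins, Srpk2, a kinase of their arginine-serine domain, had the smallest p, with a log2 fold change of -0.32 (SE 0.14, adjusted p = 0.43). Of 20 tissue regulators of splicing in muscle and heart, 3 were lower and 0 higher at an unadjusted p under 0.05. Rbfox1, which binds GCAUG in introns, had 915, 1030 and 1021 in Glut1-TG hearts and 1242, 1240 and 1357 in WT hearts. These did not overlap, with a log2 fold change of -0.37 (SE 0.11, adjusted p = 0.24). Of 10 other SR-related regulators and 18 other hnRNP-type proteins, 0 and 1 were lower at that p and 0 higher. The smallest p were those of Scaf11 (log2 fold change -0.23, adjusted p = 0.48) and of the poly(C)-binding protein Pcbp1 (-0.18, adjusted p = 0.44). With the mean of probe sets Srpk2 had -0.12, Rbfox1 -0.17 and Scaf11 0.06. The medians of the 6 lists lay between -0.10 and -0.04, against 0.02 over all genes tested and -0.18 for the cardiomyocyte markers.

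**Figure D5:**
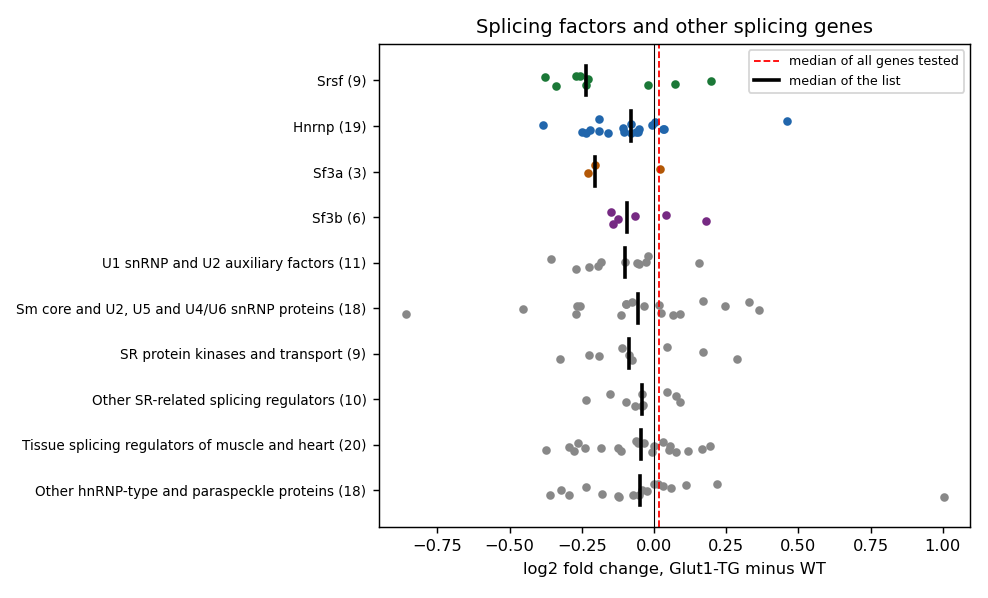
The horizontal axis gives log2 fold changes, Glut1-TG minus WT, of the genes of the 4 splicing factor families (coloured) and of 6 lists of other splicing genes (grey), with the number tested, a black line at each median and a red dashed line at the median of all genes tested. Medians run from -0.24 for Srsf to -0.04 for the other SR-related regulators, and no gene shown passed limma.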

How the data were processed

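Total RNA of left ventricles was labelled as biotinylated cRNA and hybridised to Affymetrix arrays, 1 per heart. The authors processed the scans with GCOS (version not given in the sources used here) and deposited signal intensity values on a linear scale, 1 per probe set, with no detection call. The trimmed mean (2% at each end) was 500 in every array, so the values were used without further scaling. Signals under 1 were set to 1 (48 values) and converted to log2. Of 45037 probe sets (64 controls left out), 34945 had 1 symbol in the platform annotation, 932 several and 9160 none, of which only those with 1 were used. All 38 Entrez identifiers matched RefSeq with unchanged symbols.

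The brightest probe set by mean log2 signal stood for each gene, the lowest 40% of probe sets were left out, and Glut1-TG was compared with WT over 13178 genes in R 4.3.3 with limma 3.58.1 (intensity trend, no covariate, Benjamini-Hochberg over all genes, threshold 0.05). The same fit was used for the log2 ratios of probe sets. The study's thresholds were applied with the methods' t-test. Groups of 3 hearts are taken as separate animals by their labels, and their number limits the precision. Named genes were the up to 4 of each family with the largest log2 fold change and the gene of smallest p in each list, and others follow from counts of groups that did not overlap or from probe sets and were chosen after their values were seen. The genes, lists and tests were chosen with earlier results of these data known. The procedure was tested on simulated data. The alternatives were quantile normalization, array median centring, an offset of 50, no filter, a strict filter (upper 40%), the mean of the probe sets, leaving out _x_at and _s_at sets, each array left out in turn with the same probe sets kept, a block for the replicate number, a fit without the intensity trend and the methods' t-test.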

Additional observations from a re-analysis of the deposited data

How the results depend on the processing

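No splicing factor gene passed limma in any of the alternatives, leaving out each array in turn included (0 to 0), and 1 was lower by the methods' t-test at the thresholds of the study. With the replicate number as a block, 0 genes passed in either direction, 23 and 46 of all genes were higher and lower, and the smallest adjusted p of a probe set ratio was 0.74. The deviations of same-numbered arrays correlated at 0.08, -0.03 and 0.06, and those of differently numbered arrays at -0.11 to 0.06. With 3 arrays per group these values cannot show whether the numbers pair the arrays. No probe set ratio of these genes passed in the 12 alternatives run (smallest adjusted p 0.45 to 0.97). Over all genes, 34 were higher and 79 lower in the reported fit, 48 and 66 after quantile normalization, 14 and 52 after median centring, 21 and 47 with the mean of probe sets, 2 and 2 without the intensity trend, 1 and 0 by the methods' t-test after adjustment, and 13 to 30 and 31 to 65 with an array left out. The median log2 fold change was -0.13 to -0.09 with an array left out and -0.05 after quantile normalization (all genes 0.00). It was -0.21 after median centring, which moved the median of all genes to -0.08, against 0.02 without it. Centring shifts every gene of an array alike, so it cannot change the splicing factor median minus that of all genes (-0.125). After quantile normalization that difference was -0.050. Groups that did not overlap numbered 13 with the mean of probe sets, 6 after quantile normalization and 6 after median centring. They numbered 10 to 16 with an array left out, where fewer arrays make non-overlap more frequent (24.5% to 30.3% of all genes). Of the values of 21 named genes under 17 alternatives, 344 kept direction and side of the threshold, 3 (Srsf2, Snrpa1 and Rbfox1) passed at the thresholds of the study, and 10 reversed. Reversed were Srsf2 (0.56) and Sf3b5 (0.045) without _x_at and _s_at sets, Sf3b6 (0.013), Sf1 (0.068) and Scaf11 (0.058) as the mean of probe sets, Sf3a2 (-0.078) after median centring, and, without Glut1-TG replicate 2 or WT replicate 2, Sf3a2 (-0.071 to 0.093 over the arrays left out) and Sf3b6 (-0.30 to 0.073), and the cause was not tested.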

Other observations

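A further 7 probe sets name a splicing factor gene among several symbols and entered no comparison. The 3 that name Hnrnpa1 with related loci had log2 fold changes of -0.03, 0.17 and 0.11, and the 4 that name Hnrnpa3, another hnRNP of the A/B group, with Gm6793 had -0.25, -0.26, -0.12 and 0.03. Fitted over all probe sets, their adjusted p lay between 0.65 and 0.97. One of the Hnrnpa3 sets had signals of 2485, 2295 and 2846 in Glut1-TG hearts and 2547, 3318 and 3272 in WT hearts, which overlapped.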
